A study of Mus musculus with 40 samples.

Results

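Small RNA libraries from the total blood of ageing mice were compared at 16.5 and 13.5 months of age, with 10 libraries per age, 20 of the 40 in the series. The microRNAs tested were the 103 rows with more than 100 reads in at least 20 of the 40 libraries, out of 1915 deposited rows. The animals were male C57B/6J mice from a commercial breeder, bled repeatedly from the orbital sinus in a study that asked which blood microRNAs change while memory declines. Both bleeds followed a round of water maze testing in the study's schedule, and the study also kept mice in the home cage. The study followed the same mice over these ages and describes the animals of each age as biological replicates that went through the water maze repeatedly. Libraries of the 2 ages are therefore likely repeated measures of the same animals. The labels give the age of a library but neither the animal nor the testing group, and age, the number of testing rounds and any difference between the library series of the 2 ages cannot be told apart.

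MicroRNAs are short RNAs cut from a hairpin precursor and loaded into Argonaute proteins. Bases 2 to 8, the seed, do most of the pairing with target messenger RNAs, so microRNAs with the same seed form a family with shared targets. Either arm of the hairpin (5p or 3p) can be the loaded strand. In whole blood most microRNA comes from red cells and their precursors, in which miR-486 and miR-451a are abundant, with further contributions from white cells and platelets. A lower level in blood can mean fewer cells of a type or less of the microRNA per cell, which cannot be told apart here.

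The sequences on which the results turn are shown first, 5′ to 3′, with the seed in capitals. They were taken from RefSeq (GRCm38.p6), which matched 90 of the 103 microRNAs. The largest rises are shown because they share no seed with each other.
miR-3969: cCCUAAAGuagaaaucacua
miR-144-5p: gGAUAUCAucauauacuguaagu
miR-215-5p: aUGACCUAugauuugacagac
miR-19b-3p: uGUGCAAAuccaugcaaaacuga
miR-30e-3p: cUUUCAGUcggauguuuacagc
The miR-15/16 and miR-103 and miR-107 families are shown because all 5 of their tested members fell. Their seeds are offset against each other, and the letters AGCAGCA lie near the 5′ end of each.
miR-15a-5p: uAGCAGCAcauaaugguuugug
miR-15b-5p: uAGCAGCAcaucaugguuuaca
miR-16-5p: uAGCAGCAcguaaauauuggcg
miR-103-3p: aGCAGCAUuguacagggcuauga
miR-107-3p: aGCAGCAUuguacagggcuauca
The miR-181 family is shown because 3 of its 4 tested members fell.
miR-181a-5p: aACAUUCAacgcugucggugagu
miR-181b-5p: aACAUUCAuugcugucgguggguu
miR-181c-5p: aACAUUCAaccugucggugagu
miR-181d-5p: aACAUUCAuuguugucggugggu

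Of the 103 microRNAs, 43 (41.7%) passed an adjusted p of 0.05 between the ages in edgeR's quasi-likelihood test with Benjamini-Hochberg adjustment, and 51 had an unadjusted p under 0.05. At 16.5 months 18 were higher (17.5%) and 25 were lower (24.3%). Most changes were moderate: the 43 had a median size of 0.66 on the log2 scale, and 4 rises and 5 falls exceeded 1 on the log2 scale. For 9 microRNAs the 10 libraries of one age all lay on the same side of the 10 libraries of the other (8.74% of those tested), 3 of them higher and 6 lower at 16.5 months. With library totals alone as the scaling, 26 were called, 5 higher and 21 lower, and the median log2 fold change of all microRNAs moved to -0.17 from -0.00352. DESeq2 called 25 higher and 23 lower.

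**Figure D1:**
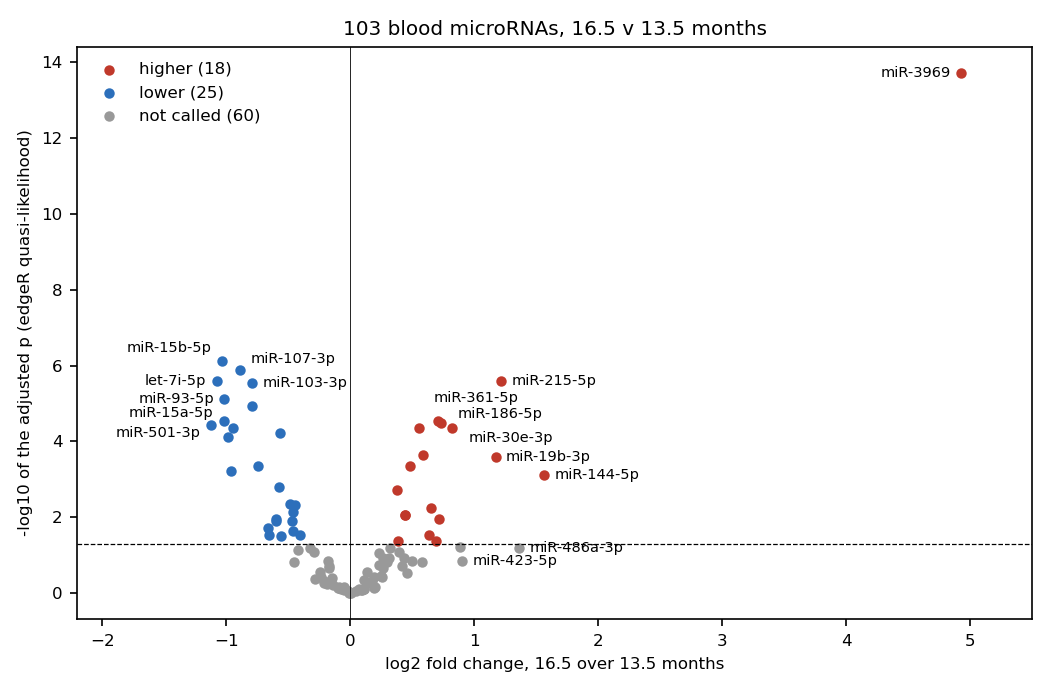
Log2 fold change at 16.5 over 13.5 months (x axis) against -log10 of the adjusted p (y axis) for the 103 microRNAs, with red points for the 18 higher, blue for the 25 lower and grey for the 60 not called, and a dashed line at an adjusted p of 0.05. miR-3969 stands alone at a log2 fold change of 4.93, while the next largest rise is miR-144-5p at 1.56.

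Library totals, with the identical miR-486a and miR-486b rows counted once, ran from 2755628 to 11563084 reads (median 6658236) at 13.5 months. At 16.5 months they ran from 1281099 to 7975044 (median 4603868). Most of these reads were miR-486a-5p, a red-cell microRNA. Reads outside miR-486 averaged 13.1% with an SD of 2.73 in the 10 younger libraries and 12.2% with an SD of 3.78 in the 10 older ones, a difference of -0.839 percentage points (two-sided permutation test, p = 0.573). The shares overlapped, but 3 of the 16.5-month libraries (libraries 2, 6 and 7) lay below the lowest 13.5-month library, at 8.35%, 6.49% and 7.26% against 9.52%. Without these 3 libraries 54 microRNAs were called, 21 higher and 33 lower, with 38 of the 43 among them.

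miR-3969 showed the largest difference of all. Its scaled level at 13.5 months ran from 6.48 to 20.3 CPM (the usual abbreviation for counts scaled to a common library size, here after TMM factors), with a median of 10.2. At 16.5 months it ran from 227 to 473 CPM, with a median of 316. Every 16.5-month library was more than 10 times above the highest 13.5-month library. The log2 fold change was 4.93 ± 0.22 (SE), a 30.5-fold rise (95% interval 22.6 to 41.0; adjusted p = 1.97e-14). In reads this was 38 to 95 per library against a median of 1710.5. miR-3969 passed the read filter with 20 of 40 libraries, the fewest allowed, and none of the 13.5-month libraries reached 100 reads. The mature sequence lies on the minus strand at chr5:87595963-87595982 (GRCm38), where the annotation holds no other gene. The sequence is close to that of the more abundant miR-142a-5p, which had medians of 24821 reads at 13.5 months and 26537 at 16.5 months. miR-142a-5p was not called (log2 fold change 0.23 ± 0.14, adjusted p = 0.183). Whether reads were shared between these rows was not tested.

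Among the other rises, miR-144-5p, processed from the same red-cell transcript as miR-451a, had 7.20, 9.04 and 55.5 CPM as its lowest, median and highest 13.5-month levels. At 16.5 months the corresponding levels were 33.7, 41.8 and 71.0 CPM. The difference on the log2 scale was 1.56 ± 0.34 (SE), at an adjusted p of 0.000758, and the ages overlapped by a single high 13.5-month library. Its neighbour miR-451a, among the most abundant red-cell microRNAs, did not pass the test (log2 fold change 0.09 ± 0.28, adjusted p = 0.813).

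miR-215-5p, a microRNA of the intestine and liver family of miR-192, had 12.4, 16.04 and 21.01 CPM at 13.5 months against 20.9, 32.4 and 52.9 CPM at 16.5 months. The ages overlapped by a single library, and the difference on the log2 scale was 1.22 ± 0.16 (SE), at an adjusted p of 2.62e-06. miR-192-5p, which has the same seed, differed by 0.07 ± 0.16 (adjusted p = 0.750), and miR-194-5p, from the same transcript as miR-215-5p, by 0.26 ± 0.15 (adjusted p = 0.175).

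miR-361-5p and miR-186-5p were the other rises without overlap between the ages. miR-361-5p, in an intron of Chm, went from a range of 13.3 to 23.2 CPM to 24.6 to 37.5 CPM (log2 fold change 0.71 ± 0.11, adjusted p = 2.89e-05). miR-186-5p, in an intron of Zranb2, went from a range of 1305 to 2218 CPM to 2233 to 3450 CPM (0.73 ± 0.12, adjusted p = 3.18e-05). It was far more abundant than miR-361-5p, and the difference was of similar size.

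Of the remaining large rises, several depended on the setting. miR-342-3p, in an intron of Evl, rose by 0.72 ± 0.22 on the log2 scale (adjusted p = 0.0109). Its libraries overlapped, from 22.2 to 64.5 CPM at 13.5 months and from 31.5 to 119 CPM at 16.5 months. The call was lost in 5 of 19 other settings, among them library totals (0.56, adjusted p = 0.0820), the fit without the 3 low-share libraries (0.53, adjusted p = 0.0576) and a block on a number that recurs once per age in the column names (0.71, adjusted p = 0.0610), with values down to 0.33. miR-130b-5p (0.70 ± 0.27, adjusted p = 0.0415) and miR-423-3p (0.64 ± 0.23, adjusted p = 0.0298) were closer to the threshold. They were called in 10 and 15 of the 20 fits that left out a single library. Without the 3 low-share libraries miR-130b-5p was at 0.22 (adjusted p = 0.374) and miR-423-3p at 0.23 (adjusted p = 0.272), and with the block both had an adjusted p of 0.130.

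**Figure D2:**
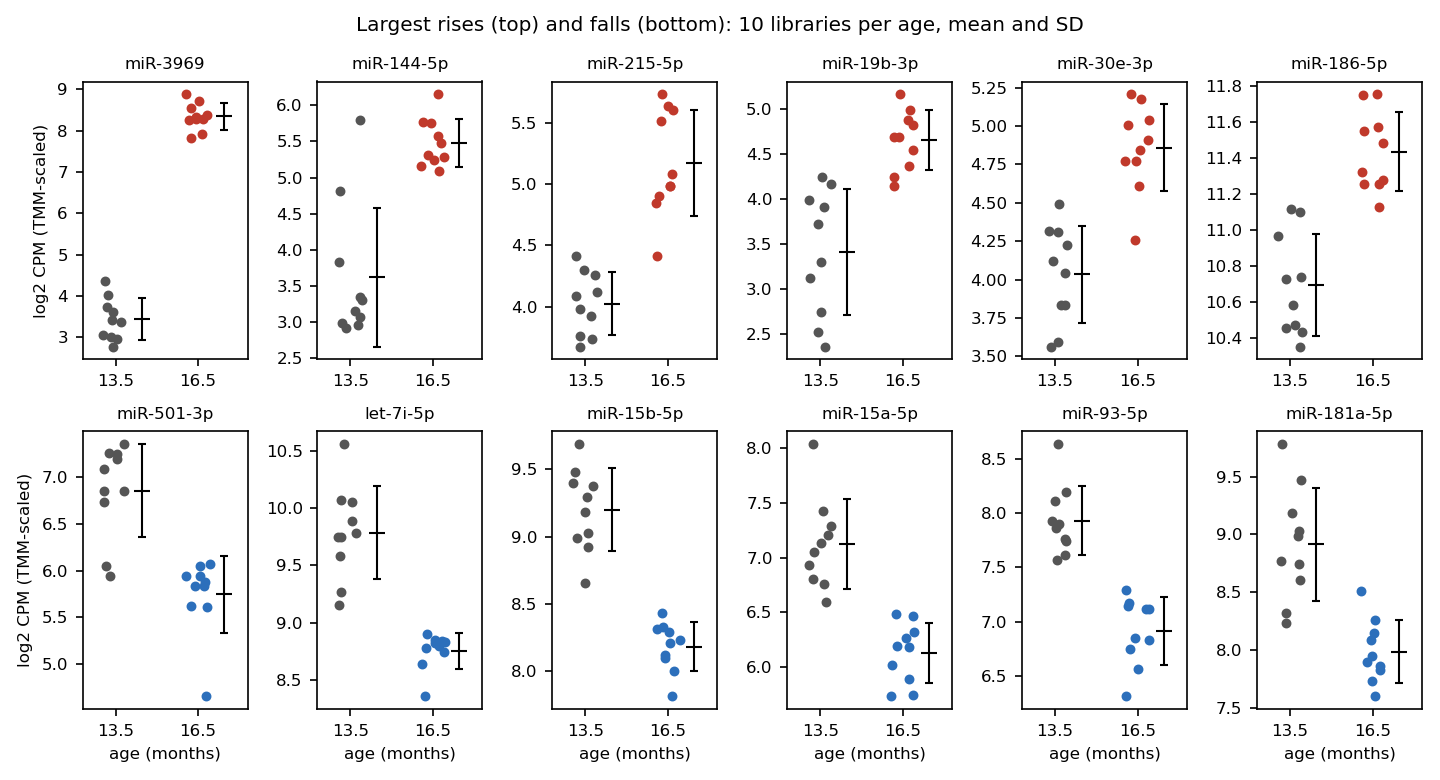
Scaled log2 CPM (y axes) of the 6 largest rises (top row, red) and the 6 largest falls (bottom row, blue) in the 10 libraries of 13.5 months (dark points) and the 10 of 16.5 months, with the mean and SD beside each group. miR-3969 and miR-186-5p, and let-7i-5p, miR-15b-5p, miR-15a-5p and miR-93-5p, show no overlap between the ages.

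The miR-15/16 family, which targets cell cycle and survival genes such as Bcl2, fell as a group: all 3 tested members were lower, against 24.3% of all microRNAs tested. miR-15b-5p had 404, 603 and 824 CPM as its lowest, median and highest 13.5-month levels and 224, 298 and 345 CPM at 16.5 months. No library overlapped, and the difference on the log2 scale was -1.03 ± 0.12 (SE), at an adjusted p of 7.54e-07. miR-15a-5p went from 96.1, 136 and 263 CPM to 52.8, 72.7 and 89.2 CPM, again without overlap (-1.02 ± 0.16, adjusted p = 2.89e-05). miR-16-5p, which is cotranscribed with either of them and is much more abundant, fell less, by 0.41 ± 0.15 on the log2 scale (adjusted p = 0.0297), from a median of 11073 to 8809 CPM. Its call was lost in 6 of the 20 fits without a single library and in 12 of 19 other settings, among them the block (adjusted p = 0.0939). miR-195a-5p, miR-322-5p and miR-497a-5p, with the same seed, did not pass the read filter.

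The family of miR-103 and miR-107 is encoded in introns of the pantothenate kinase genes Pank1, Pank2 and Pank3. It also fell, with both tested members lower, beside 24.3% lower over all microRNAs. miR-107-3p went from a range of 143 to 247 CPM to 87.5 to 123 CPM (log2 fold change -0.89 ± 0.11, adjusted p = 1.27e-06). miR-103-3p went from 347 to 657 CPM to 209 to 308 CPM (-0.79 ± 0.10, adjusted p = 2.87e-06). For both, every 16.5-month library was below every 13.5-month library. The sequences of miR-103-3p and miR-107-3p are near-identical, so these are not fully separate measurements.

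The letters AGCAGCA were found within the first 9 bases of 5 of the 90 matched microRNAs. These (5.56%) were the 5 members of the miR-15/16 and miR-103 and miR-107 families just described, from which the letters were chosen, so their common direction is the one already given. Among 1679 mature mouse sequences in the reference table, 0.715% hold these letters there. More generally, among the 90 matched microRNAs 15 seeds were shared by more than 1, covering 40 microRNAs. Tested microRNAs without a matched sequence, miR-378a-3p among them, were left out of this count. Of these seeds 12 had at least 1 called member, 8 of them exactly 1, where 41.7% of all microRNAs tested were called. Among matched microRNAs the 4 seeds with more calls were those of let-7, miR-181, miR-15/16 and miR-103, and in each the calls were all lower.

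The let-7 family, known for restraining growth and developmental genes, gave 2 lower calls among 7 tested members with its seed, beside 24.3% lower over all microRNAs. The sequences are shown with bases 9 to 16 in capitals, a stretch chosen after the values were seen, in which let-7g-5p, let-7i-5p and let-7j have the same letters; no test was made of it.
let-7a-5p: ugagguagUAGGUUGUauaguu
let-7b-5p: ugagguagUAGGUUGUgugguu
let-7c-5p: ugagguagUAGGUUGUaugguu
let-7d-5p: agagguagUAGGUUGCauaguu
let-7f-5p: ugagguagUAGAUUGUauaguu
let-7g-5p: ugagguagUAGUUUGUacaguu
let-7i-5p: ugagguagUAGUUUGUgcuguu
let-7j: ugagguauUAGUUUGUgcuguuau
let-7i-5p had 569, 869 and 1510 CPM as its lowest, median and highest levels at 13.5 months and 327, 447 and 478 CPM at 16.5 months. The ages did not overlap, and the difference on the log2 scale was -1.08 ± 0.14 (SE), at an adjusted p of 2.62e-06. let-7j, an annotated microRNA whose sequence is close to that of let-7i-5p, fell by 0.95 ± 0.16 on the log2 scale (adjusted p = 4.41e-05). The counting could have split reads between these rows, and their changes are not independent. let-7g-5p fell by 0.60 ± 0.19 on the log2 scale (adjusted p = 0.0121), a call lost with the block (adjusted p = 0.0610).

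The other let-7 members were not called. Their log2 fold changes ran from -0.28 ± 0.27 for let-7b-5p (adjusted p = 0.419) to 0.25 ± 0.20 for let-7f-5p (adjusted p = 0.355). The median of the 7 was -0.24, and 0 rose. Without the 3 low-share libraries of 16.5 months 5 of the 7 were called lower, so which members were called depended on those libraries. Whether members differed from each other was not tested.

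In the miR-181 family, which sets the sensitivity of T cell receptor signalling, 3 of 4 tested members fell, beside 24.3% lower over all microRNAs. miR-181a-5p went from 300, 471 and 881 CPM to 193, 242 and 365 CPM, and the ages overlapped slightly (log2 fold change -0.98 ± 0.17, adjusted p = 7.51e-05). miR-181d-5p fell by 0.49 ± 0.13 (adjusted p = 0.00439) and miR-181b-5p by 0.46 ± 0.16 (adjusted p = 0.0227) on the log2 scale. miR-181c-5p, from the same transcript as miR-181d-5p, differed by -0.21 ± 0.22 (adjusted p = 0.459). The call of miR-181b-5p was lost without 13.5-month library 8 (adjusted p = 0.0514) and with the block (adjusted p = 0.0610).

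The miR-501-3p row had the largest fall. It went from 61.3, 125 and 164 CPM at 13.5 months to 24.8, 57.7 and 66.9 CPM at 16.5 months (log2 fold change -1.12 ± 0.18, adjusted p = 3.64e-05). Its hairpin lies in an intron of Clcn5 on the X chromosome, with that of miR-532-5p, which fell by 0.96 ± 0.21 on the log2 scale (adjusted p = 0.000596). These were the only 2 of the 12 listed microRNAs of that cluster that passed the read filter. Of the miR-378 family, linked to energy metabolism, both tested members fell, beside 24.3% lower over all microRNAs. miR-378c fell by 0.79 ± 0.12 (adjusted p = 1.15e-05) and miR-378a-3p by 0.57 ± 0.10 (adjusted p = 5.88e-05) on the log2 scale. Their sequences are near-identical. miR-99b-5p, from the miR-100 family, fell by 0.74 ± 0.15 on the log2 scale (adjusted p = 0.000453), while miR-125a-5p from the same cluster differed by 0.05 ± 0.26 (adjusted p = 0.882).

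The miR-17 family and its clusters, which drive proliferation of blood progenitors, had 1 member higher, 2 lower and 6 not called of 9 tested, a smaller share than the 41.7% called over all microRNAs. With 2 factors of unwanted variation 4 were higher and 2 lower. miR-93-5p, in Mcm7, fell without overlap from a range of 189 to 397 CPM to 79.2 to 156 CPM (log2 fold change -1.01 ± 0.14, adjusted p = 7.64e-06). From the same transcript, miR-25-3p differed by -0.00352 ± 0.0952 (adjusted p = 0.982) and miR-106b-3p by -0.17 ± 0.11 (adjusted p = 0.221). In Mir17hg on chromosome 14, miR-17-3p fell by 0.57 ± 0.14 on the log2 scale (adjusted p = 0.00153). miR-19b-3p, which has a hairpin in the same transcript and another on the X chromosome, rose by 1.17 ± 0.23 (adjusted p = 0.000263), from 4.80, 11.2 and 18.6 CPM to 17.4, 25.6 and 35.6 CPM. miR-92a-3p, the most abundant of the cluster, differed by 0.09 ± 0.36 (adjusted p = 0.840).

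The miR-30 family had 2 higher and 0 lower of 7 tested, beside 17.5% higher over all microRNAs, which is a difference of about 1 member. Its median log2 fold change was 0.27 (0.08 with library totals, with 1 higher), beside -0.00352 over all microRNAs tested. miR-30a-5p went from a range of 780 to 1522 CPM to 1478 to 2179 CPM, with a slight overlap (0.59 ± 0.12, adjusted p = 0.000229). miR-30e-3p went from 11.5 to 22.2 CPM to 18.8 to 36.6 CPM (0.82 ± 0.14, adjusted p = 4.41e-05). miR-30e-5p (0.32 ± 0.14) and miR-30a-3p (-0.32 ± 0.14) had the same adjusted p of 0.0653.

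Both members of the cluster of miR-191 and miR-425 rose, beside 17.5% higher over all microRNAs. miR-191-5p, the third most abundant microRNA by mean share, went from 13104, 17751 and 20374 CPM to 20023, 22804 and 27673 CPM (0.38 ± 0.09, adjusted p = 0.00194). miR-425-5p, transcribed with it, rose by 0.56 ± 0.09 (adjusted p = 4.41e-05). With library totals alone neither was called. Of the miR-26 family, miR-26a-5p rose by 0.48 ± 0.10 (adjusted p = 0.000435) and miR-26b-5p differed by 0.26 ± 0.23 (adjusted p = 0.370).

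**Figure D3:**
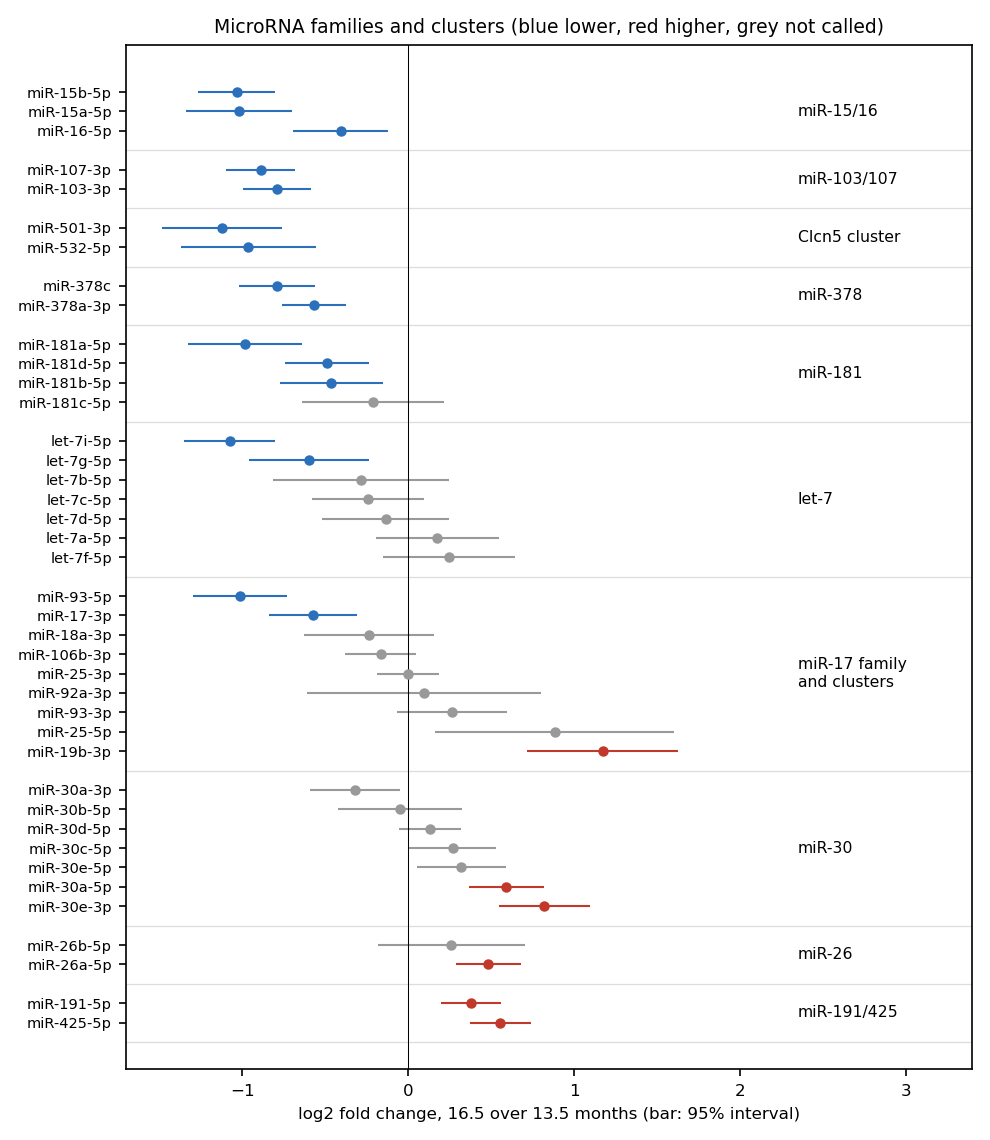
Log2 fold change at 16.5 over 13.5 months with unadjusted 95% intervals (x axis) for each tested member of 10 families and clusters (rows). The groups of miR-15, of miR-103, of Clcn5 and of miR-378 lie wholly below 0 and that of miR-191 above it, whereas the miR-17 group spans from -1.01 for miR-93-5p to 1.17 for miR-19b-3p.

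Genomic clusters moved as units only in part. Groups were formed from tested microRNAs with a matched position that lie within 10 kb of each other on the same strand. Of these 19 groups, 13 held at least 1 called microRNA. miR-532-5p had no matched position, so its pair with miR-501-3p in Clcn5, both lower, was not among them. Over all microRNAs 41.7% were called, and a group of several members can hold a call at that share. This count alone therefore says nothing about clusters. In 4 groups all members were called in 1 direction, but 2 of these hold the same rows, miR-181a-5p and miR-181b-5p, whose reads cannot be assigned to either copy, so they are 3 separate sets of measurements. MicroRNAs with more than 1 copy recur in other groups too. In 2 groups members were called in opposite directions. The 2 groups were Mir17hg and the miR-15b/16 cluster in an intron of Smc4, where the opposite calls were those of the 5p and 3p arms of miR-15b.

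The ratio of the arms of a hairpin is independent of the scaling of a library, because both arms are cut from 1 precursor and counted in 1 library. It was compared for the 10 hairpins with both arms tested. The ratio differed for 5 of 10 (two-sided permutation tests, adjusted over 10 pairs), 3 towards the 3p arm and 2 towards the 5p arm. The reads of miR-15b-5p were on average 38.1 times those of miR-15b-3p at 13.5 months and 11.3 times at 16.5 months (difference of log2 ratios -1.75, permutation p = 2e-05, the smallest these permutations can give, adjusted p = 0.0001). No library overlapped between the ages.

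The other ratio without overlap was that of miR-30a, which moved towards the 5p arm from 33.5 to 62.9 (difference 0.91, permutation p = 2e-05, adjusted p = 0.0001). miR-130b moved the same way, from 0.343 to 0.709 (1.05, adjusted permutation p = 0.000267), with the 5p arm higher and the 3p arm lower in the fit across all microRNAs. miR-93 moved towards the 3p arm, from 10.6 to 4.33 (-1.29, adjusted permutation p = 0.0007), and so did miR-30e, from 23.7 to 16.8 (-0.50, adjusted permutation p = 0.0212), which did not pass without the 3 low-share libraries (-0.38, adjusted permutation p = 0.117). Both arms of miR-30a are near-identical in sequence to those of miR-30e, so the ratios of these hairpins are not fully separate measurements. For all 5 hairpins each of the 10 libraries of 16.5 months lay on the same side of the 13.5-month mean. The ratios of miR-25, let-7d, miR-151, miR-486a and miR-423 did not pass, with adjusted permutation p from 0.114 to 0.541.

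**Figure D4:**
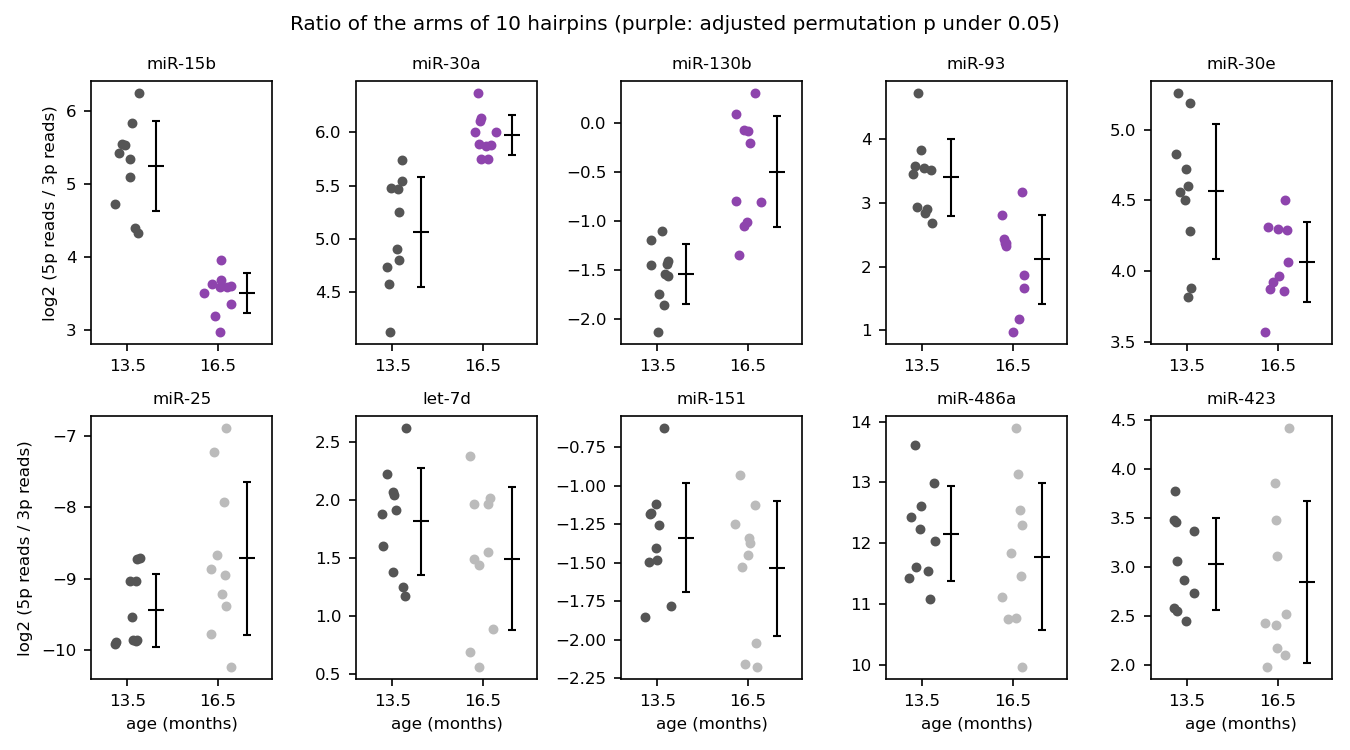
Log2 of the ratio of 5p to 3p reads (y axes) in the 10 libraries of each age (x axes) for 10 hairpins, with the mean and SD beside each group. Purple panels mark the 5 hairpins at an adjusted permutation p under 0.05, of which miR-15b and miR-30a show no overlap between the ages.

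Other families listed for blood gave fewer calls. The single tested member of the miR-29 family, miR-29a-3p, was lower (-0.55 ± 0.20, adjusted p = 0.0306), a call kept in 10 of the 20 fits without a single library and lost in 13 of 19 other settings, DESeq2 and all 4 ages in 1 fit among them. The single tested member of the cluster of miR-221 and miR-222, miR-222-3p, was lower (-0.46 ± 0.13, adjusted p = 0.00718), and 1 of 2 members of the miR-130 and miR-301 family was lower, miR-130b-3p. In the miR-10 family 1 of 2 was higher, miR-10a-5p by 0.39 ± 0.15 (adjusted p = 0.0411), called in 11 of the 20 such fits. Of miR-23/27/24 (4 tested), the miR-148 and miR-152 family (2), miR-146 (2), miR-151 (2), miR-140 (1) and the miR-183 cluster (1), 0 were called, beside 41.7% over all microRNAs. Among 4 microRNAs often used as references in blood, miR-423-3p was higher and miR-423-5p, miR-484 and miR-320-3p did not pass, with the log2 fold change of miR-423-5p at 0.90 ± 0.48 (adjusted p = 0.142). The median of the 4 was 0.28, and without the 3 low-share libraries it was -0.34, with 0 higher and 1 lower.

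The 7 microRNAs on the study's own list, which was chosen partly on these samples, gave 2 calls, both lower, beside 24.3% lower and 41.7% called over all microRNAs. These were miR-181a-5p, described above, and miR-130b-3p, from a range of 74.8 to 150 CPM to 59.7 to 140 CPM (-0.47 ± 0.15, adjusted p = 0.0121). miR-146a-5p, a brake on inflammatory signalling, differed by 0.44 ± 0.22 (adjusted p = 0.117), let-7b-5p by -0.28 ± 0.27, miR-30a-3p by -0.32 ± 0.14 and miR-192-5p by 0.07 ± 0.16. miR-148a-3p differed by -0.00539 ± 0.251 (adjusted p = 0.983), with medians of 94.3 and 114 CPM. Of the 3 that the study combined as a signature, miR-181a-5p was lower and the other two were not called. With 2 factors of unwanted variation, a form of the study's approach, miR-146a-5p was higher (0.55, adjusted p = 0.0238), the only 1 of 19 other settings in which it was called. With 1 factor miR-30a-3p was called lower (adjusted p = 0.041), also the only such setting. let-7b-5p was called lower in 4 of the 19, among them library totals and the fit without the 3 low-share libraries.

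Averaged over libraries, the microRNAs holding most of the counts were miR-486a-5p (87.3%), miR-92a-3p (2.21%), miR-191-5p (2.09%), miR-25-3p (1.19%) and miR-16-5p (1.13%). miR-486a-5p differed by 0.42 ± 0.25 (adjusted p = 0.186) on the TMM scale, with 16.5-month levels that spread up to 2333680 CPM in the libraries with small scaling factors.

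The labelled tissue matched its markers. The 7 listed red-cell microRNAs held 880538 to 935470 CPM (of unscaled totals) at 13.5 months and 877984 to 960852 at 16.5 months. Of the 6 that were tested, 1 was higher (miR-144-5p) and 1 lower (miR-16-5p). Over all microRNAs tested 17.5% were higher and 24.3% lower, 41.7% called in all. The small counts of this list and the cell type lists below stand beside these shares. Of 5 listed for myeloid cells 3 were tested and 0 called, while 2 of the 3 were called higher without the 3 low-share libraries and also with the share outside miR-486 as a covariate. Their summed level ran from 2695 to 9908 and from 1655 to 8837 CPM. Of 5 listed for lymphocytes 4 were tested, 1 higher (miR-342-3p) and 2 lower (miR-181a-5p and miR-181b-5p), while miR-150-5p, the defining microRNA of mature lymphocytes, differed by 0.20 ± 0.36 (adjusted p = 0.698). The summed lymphocyte level ran from 1017 to 1901 and from 605 to 2226 CPM, and its part in the falls of miR-181 was not tested.

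Of 6 microRNAs listed for platelets and endothelium 1 was tested and lower (miR-222-3p). miR-126a-3p, which defines that list, had 1 to 16 reads per library at 13.5 months and 0 to 6 at 16.5 months. Of 4 for liver and gut 3 were tested and 1 was higher (miR-215-5p), while miR-122-5p, which defines liver, had 0 reads in all 20 libraries. Of 6 for striated muscle 0 were tested, with miR-1a-3p and miR-206-3p at 0 reads in all 20. miR-133a-3p, on the same list, had 2 to 151 reads per library at 13.5 months and 3 to 34 at 16.5 months. Of 8 for brain 1 was tested and not called (miR-128-3p), and miR-124-3p had at most 1 read in a library. miR-132-3p, also listed for brain, had 27 to 115 reads at 13.5 months and 11 to 88 at 16.5 months.

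The microRNAs that rose and fell differed in base composition as a description. The median GC content was 42.2% in the 18 that rose, 47.8% in the 23 of 25 that fell and had a sequence, and 47.6% in the 49 that were not called. Across the 90 matched microRNAs GC content and the log2 fold change had Pearson's r of -0.247 and Spearman's rho of -0.241, and r of -0.199 without miR-3969. These microRNAs share the same 20 libraries and are not independent replicates. Length showed less, with a median of 22 bases in all groups.

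The levels at 12 and 15 months place the 13.5-month libraries in the series. On a scale common to the 40 libraries, miR-3969 had medians of 83.3 CPM at 12 months, 9.04 at 13.5, 5.87 at 15 and 280 at 16.5 months. It was thus high, low, low and high in turn. Column names end in a letter alone at 12 and 16.5 months and in a letter and a number at 13.5 and 15 months. No source used here says what these endings mark, and their part in this order was not tested. miR-144-5p had medians of 44.0, 8.39, 34.6 and 40.5 CPM, and miR-19b-3p of 39.3, 10.4, 29.7 and 23.5 CPM, both with their lowest median at 13.5 months. let-7i-5p had 464, 798, 436 and 415 CPM, and miR-15b-5p had 334, 536, 257 and 277 CPM, both highest at 13.5 months. miR-342-3p (29.2, 36.8, 36.6 and 65.0 CPM) and miR-191-5p (14086, 16156, 12727 and 21846 CPM) had their highest median at 16.5 months. miR-532-5p had 41.5, 30.1, 41.9 and 19.8 CPM. For the 18 higher microRNAs the log2 differences of medians from 13.5 months had a median of 0.40 at 12 months, 0.43 at 15 and 0.71 at 16.5 months. For the 25 lower ones they were -0.44, -0.60 and -0.61. Between 16.5 and 12 months the medians were smaller, 0.32 for the 18 and -0.25 for the 25. Differences from 13.5 months to each other age share the 13.5-month libraries, and the microRNAs were chosen on 1 of these differences, so these orders are not separate evidence.

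**Figure D5:**
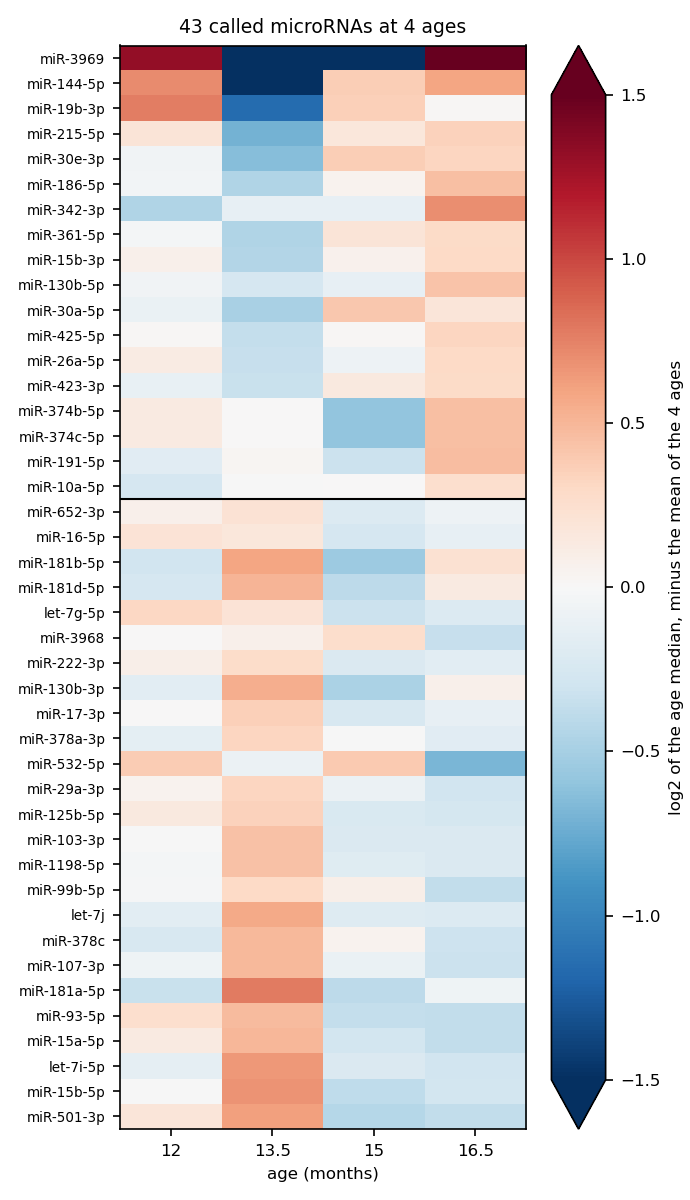
Log2 of the median level at each of 4 ages (columns) minus the mean over the ages for the 43 called microRNAs (rows; the 18 higher above the line and the 25 lower under it), from blue (low) to red (high), with the scale ending at 1.5 on either side. The 13.5-month column is blue for miR-144-5p and miR-19b-3p and red for let-7i-5p and miR-15b-5p, while miR-3969 is red at 12 and 16.5 months.

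The read filter set which microRNAs entered. Just inside it, with 20 libraries over 100 reads, were miR-3969, miR-30e-3p and miR-1981-3p, the first and second with medians over the 40 libraries of 133 and 102.5 reads. Just outside, with 19, was miR-221-3p, with a median of 92. A filter of more than 1 read in 20 of 40 libraries let 343 microRNAs in, of which 69 were called, 28 higher and 41 lower. Of the 240 that this added, 33 were called. Among these, let-7i-3p fell by 1.08 ± 0.16 on the log2 scale (adjusted p = 3.21e-05), the passenger arm of let-7i-5p, and miR-221-3p by 1.36 ± 0.23 (adjusted p = 0.000129). miR-106b-5p, which shares its seed with miR-93-5p, fell by 1.20 ± 0.29 (adjusted p = 0.00326), and miR-183-5p fell by 1.75 ± 0.37 (adjusted p = 0.00124). Their reads were few, with medians at 13.5 and 16.5 months of 83.5 and 40.5 for miR-106b-5p and 28.5 and 6 for miR-183-5p. miR-142a-3p, of blood cells in general, rose by 1.19 ± 0.27 (adjusted p = 0.00178). miR-100-5p had a median of 46 reads at 13.5 months and 8.5 at 16.5 months. These microRNAs were chosen after their values were seen.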

How the data were processed

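Total blood RNA was prepared as small RNA libraries and read as 50-base single-end reads. The authors trimmed adapters, mapped reads to mm10 and counted mature microRNAs with miRDeep2, and deposited raw counts per microRNA. The deposited normalized table was not used. Ages came from the labels' titles; each column names its age but no replicate number of the labels, and 0 columns were left without an age.

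MicroRNAs and lists were chosen with earlier results of these data known. The rows of miR-486b, identical to miR-486a, were dropped. miR-374b-5p and miR-374c-5p were also identical and count as separate calls (42 called with 1 of them). edgeR 4.0.16 (R 4.3.3) was fitted to the counts of the 20 libraries (TMM, glmQLFit, glmQLFTest, Benjamini-Hochberg, threshold 0.05). Standard errors were derived from the F statistic and the fitted log2 difference. Arm ratios (0.5 reads added to each arm) and shares were compared with two-sided permutation tests of 100000 resamples. Intervals cover the spread between libraries; reads carry no molecular identifiers. The study describes the mice of an age as biological replicates bled repeatedly, and the labels tie no library to an animal. A number that recurs once per age in the column names may mark the animal, but no source used here explains it. Libraries therefore entered as independent, and the number as a block was an alternative. The same mice were followed over the ages, and the main fit and the permutation tests did not use this pairing. Libraries are numbered 1 to 10 within an age in the order of that number. No library pair within an age was a duplicate (smallest chi-square per degree of freedom 24.3 over 90 pairs).

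Named microRNAs are the 12 largest called rises and 12 largest falls, the study's 7, the 5 most abundant, those at the read filter, arm pairs that passed and members of the lists described. Alternatives were DESeq2 1.42.0, limma 3.58.1 with voom quality weights, other scalings and filters, 1 or 2 factors of unwanted variation (the study's approach), all 4 ages in 1 fit, thinning, and leaving out libraries. The fit was tested on simulated data. Positions are from RefSeq (GRCm38.p6) and overlapping genes from GENCODE M21 (GRCm38).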

Additional observations from a re-analysis of the deposited data

Results flagged for a closer look

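Among 124 groups of 10 libraries examined (named microRNAs, arm ratios and the share outside miR-486 at each age), 9 held a library that stood apart from the others. The measure is the gap from the extreme library to the next as a share of the group's range, judged against Dixon's 95% critical value for 10 values. Chance flags about 1 in 20 groups, and 9 of 124 is 7.26%. At 16.5 months library 7 was lowest for miR-501-3p, at 24.8 CPM with the next at 48.6 (gap 0.676). It was also lowest for let-7i-5p, at 327 with the next at 397 (0.511), and highest for miR-130b-3p, at 140 with the next at 94.1 (0.467). Library 2 was lowest for let-7j, at 32.8 with the next at 42.0 (0.530), and library 6 was lowest for miR-17-3p, at 6.10 with the next at 14.9 (0.676). These are the 3 libraries with a low share outside miR-486, and whether the 2 facts are related was not tested. Library 1 was highest for miR-26a-5p, at 5453 with the next at 4472 (0.548), and for miR-222-3p, at 67.6 with the next at 52.8 (0.566). At 13.5 months library 7 was highest for miR-16-5p, at 18937 with the next at 12902 (0.469), and library 5 was lowest for miR-378a-3p, at 180 with the next at 238 (0.525).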

How the results depend on the processing

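There were 19 alternatives. Of the 43 called microRNAs, 19 kept their direction and call in each alternative that tested them, which was 18 for miR-19b-3p and miR-30e-3p. The other 24 lost the call in at least 1, of which 1 reversed. Against 43 called (18 higher), library totals alone gave 26 (5 higher), a filter of more than 1 read in 20 of 40 libraries gave 69 (28 higher and 41 lower), and 2 factors of unwanted variation gave 30 higher. Leaving out each library in turn gave 39 to 46 called, 15 to 20 higher and 23 to 27 lower. The reversed call was miR-130b-5p, at -0.00377 without the 5 libraries whose TMM factor was under 0.7 or over 1.5. The share outside miR-486 reversed to 0.995 percentage points as a difference of medians and to 1.25 without the 16.5-month libraries 2, 6 and 7. It stayed between -1.43 and -0.174 when a single library was left out. With arms of more than 1 read, 20 of 69 arm ratios passed, against 5 of 10. The causes were not tested.

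Calls lost without a single library were those of miR-130b-5p (13.5-month libraries 1, 6, 7, 9 and 10 and 16.5-month libraries 1, 2, 3, 6 and 7; adjusted p up to 0.0758), miR-423-3p (13.5-month 1, 6 and 7, 16.5-month 1 and 6; up to 0.0609) and miR-16-5p (13.5-month 5, 7 and 8, 16.5-month 2, 6 and 7; up to 0.123). The others were miR-3968 (13.5-month 2 and 3, 16.5-month 4 and 9; up to 0.0626), miR-29a-3p (13.5-month 1, 5, 7, 9 and 10, 16.5-month 2, 3, 6, 7 and 8; up to 0.123), miR-10a-5p (13.5-month 1, 2, 3, 7, 8 and 10, 16.5-month 4, 9 and 10; up to 0.0844) and miR-181b-5p (13.5-month 8; 0.0514). miR-30a-3p was gained without 13.5-month library 4 or 16.5-month library 10 (down to 0.0403).

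Log2 fold changes that were not called in the main fit changed sign, 4 of them close to 0 and that of miR-486a-5p at 0.42. That of miR-92a-3p ran from -0.674 to 0.420 over the alternatives, and miR-92a-3p was called higher with 2 factors of unwanted variation. miR-148a-3p became 0.0633 with RLE factors, 0.0501 without miR-486, 0.0354 with the filter on these 20 libraries, 0.0640 with DESeq2, 0.248 with limma voom, 0.0455 in 1 fit of 4 ages, 0.0127 and 0.357 with 1 and 2 factors, 0.00367 with identical rows once, 0.122 with the replicate block, 0.0480 without the 3 low-share libraries, 0.111 without the 5 by TMM factor and 0.0814 with the share as a covariate. miR-25-3p became 0.0648, 0.0320, 0.0327, 0.0649, 0.0505, 0.0764 (2 factors), 0.00503 and 0.000727 in the same order of those that reversed it, and 0.00551 with no filter and 0.0696 without the library beyond a connectivity Z of 2.5. miR-92a-3p became -0.309 with library totals, -0.105 and -0.0357 with the lower filters, -0.0899 with limma voom, -0.162 with 1 factor, -0.0331 without the library by Z, -0.524 without the 3 libraries, -0.674 without the 5 and -0.293 with the covariate. miR-486a-5p became -0.0135 with limma voom, -0.150 without the 3 and -0.172 without the 5, and miR-192-5p -0.0661 with library totals.

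The replicate block, by a number that recurs once per age in the column names, called 37 microRNAs, 15 higher and 22 lower, all among the 43. The 6 calls it ended were let-7g-5p, miR-16-5p, miR-130b-5p, miR-181b-5p, miR-342-3p and miR-423-3p. Deviations from the age mean in libraries with the same number gave 10 correlations of -0.625 to 0.505 (median -0.0461). Such deviations take in any difference between libraries, so they cannot decide whether the number marks an animal. No source says what it marks. The replicate block, the fits without the 3 or 5 libraries and the covariate were chosen after seeing the data. Counting depth limits microRNAs with few reads: thinned to 93002 reads outside miR-486, 35 were called.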
